A study of Homo sapiens with 27 samples.

Results

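The plasminogen activation system was described through 5 of the 58721 genes in the count table: the activators PLAU (urokinase, uPA) and PLAT (tissue plasminogen activator, tPA), the urokinase receptor PLAUR, and the inhibitors SERPINE2 (protease nexin-1) and SERPINB2 (plasminogen activator inhibitor 2). The genes were listed by their role in this system, and the system was picked because of the high PLAU level in TADA2B knockout cells in DMSO. By the log2 difference between knockout and control cells in DMSO, PLAU ranked 64 among the 25199 genes tested, and 7 among 12351 protein-coding genes with an average of at least 1 log2 CPM (CPM: counts scaled to the size of the library). That comparison therefore chose the members, and it is given below as a description with no test.

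Plasminogen circulates as an inactive precursor, and urokinase and tissue plasminogen activator cut it into plasmin, a broad protease that degrades fibrin and parts of the extracellular matrix. Urokinase is secreted as an inactive single chain and works mostly at the cell surface, where PLAUR, a receptor held in the membrane by a lipid anchor, concentrates it. Serpins are inhibitors that trap the protease in a covalent complex. In melanoma and other tumours the system is known for its part in invasion, and SERPINE2 is a secreted inhibitor of urokinase, tissue plasminogen activator, plasmin and thrombin.

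The study measured polyA RNA of A375, an established human melanoma cell line that carries a mutant BRAF kinase. The 27 libraries form 9 groups of 3. Control cells carried a guide named GFPsg in the titles, with the genotype given as WT, and TADA2B knockout cells carried 1 of 2 guides, called guide 1 and guide 2 here. Each of these populations was kept for 24 h in DMSO, in trametinib at 20 nM, which blocks the kinase MEK, or in 1 µM vemurafenib, an inhibitor of mutant BRAF. TADA2B is an adaptor subunit of the SAGA histone acetyltransferase complex. The labels do not say whether a knockout population is a pool or a clone, nor whether replicates are separate cultures, so the tests speak of variation among libraries that may be technical. The parent cells and both guides share the line and its BRAF mutation.

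The library totals ran from 67502300 to 92513726 counts. TADA2B transcript was 0.08 lower on the log2 scale in knockout cells in DMSO (SE 0.0371, edgeR adjusted p = 0.0629), 0.37 lower in trametinib (adjusted p = 1.17e-12) and 0.52 lower in vemurafenib (adjusted p = 1.01e-17), and a transcript count does not show whether a small deletion disrupts the protein. The melanoma markers SOX10 (267 to 1121 CPM), MITF (52.1 to 152) and PRAME (175 to 239) were present in every library. Of the pigment genes on the same list, PMEL, MLANA and TYR reached at most 2.34, 2.08 and 0.281 CPM, and DCT ranged from 0.128 to 1063 CPM over the libraries. All 5 members passed the filter on low counts, PLAU through its knockout libraries, in every treatment, and SERPINB2 only through knockout cells in DMSO.

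Sequence before RefSeq start sites was examined for 4 members in promoter windows of GRCh38.p14. The start sites of the 3 printed stretches lie inside the GENCODE bounds of their genes given below, so these stretches do not precede the outermost ends of the genes. Which start is used in these cells was not tested. The SERPINE2 and SERPINB2 stretches hold no annotated exon, and the PLAUR stretch lies within an annotated PLAUR exon. The search covered both strands and 3 motifs. AP-1 was written as TGANTCA. The TATA box was written as TATAAA. The name M-box is used here for the letters TCACNTG alone, an E-box form. Other forms bound by MITF and its relatives were not searched. No letters of one motif overlap another in the windows shown. The motifs were chosen after the sequences had been seen. Of 35116 windows of 250 bases, 6.57% held the AP-1 letters, 10.7% held TATAAA and 12.9% held the M-box letters. A SERPINE2 window held 6 M-box matches, and 6 or more were found in 0.0285% of windows. A match is a description of letters, not a binding site. The printed windows are given 5′ to 3′ in the direction of the gene, with matches in capitals, to show the repeated M-box letters before a SERPINE2 start, the AP-1 and TATAAA letters before a SERPINB2 start, and the AP-1 letters before a PLAUR start.
SERPINE2, chr2:224031479-224031728, minus strand: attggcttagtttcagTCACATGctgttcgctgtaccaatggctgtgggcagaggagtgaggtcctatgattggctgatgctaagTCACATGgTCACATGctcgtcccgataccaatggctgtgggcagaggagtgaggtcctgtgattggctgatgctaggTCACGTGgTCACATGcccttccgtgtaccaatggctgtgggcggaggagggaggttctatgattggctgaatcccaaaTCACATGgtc
SERPINB2, chr18:63887455-63887699, plus strand: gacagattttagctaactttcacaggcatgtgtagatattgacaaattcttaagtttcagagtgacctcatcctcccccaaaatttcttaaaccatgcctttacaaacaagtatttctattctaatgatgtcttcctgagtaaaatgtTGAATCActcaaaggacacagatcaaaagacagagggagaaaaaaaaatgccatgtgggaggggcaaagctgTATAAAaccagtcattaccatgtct
PLAUR, chr19:43670337-43670366, minus strand: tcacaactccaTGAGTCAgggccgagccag
The SERPINB2 matches lay 102 bases (AP-1) and 30 bases (TATAAA) before the start site, and the PLAUR match 186 bases before it. A further SERPINE2 window and the PLAU windows held none of these letters, which says only that they are not in those windows.

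PLAU (ENSG00000122861, hg38 chr10:73909177-73917497, plus strand), the gene of urokinase, was nearly silent in control cells. In control cells in DMSO the 3 libraries held 7, 11 and 14 counts, or 0.0971, 0.143 and 0.201 CPM. In guide 1 cells in DMSO they stood at 5.30, 5.44 and 5.98 CPM, and in guide 2 cells at 9.44, 9.71 and 11.2 CPM. Every knockout library in DMSO lay above every control library, and the guides did not overlap. The average of both guides was 50.8-fold above control (log2 5.67, SE 0.188), as the choice of the gene required, in a comparison that called 57.9% of genes.

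Both inhibitors left PLAU low in control cells and did not bring knockout cells to the control level. With trametinib the control libraries held 2, 2 and 0 counts (0.0244, 0.0241 and 0 CPM), against 0.998, 1.03 and 1.12 CPM in guide 1 cells and 1.64, 1.71 and 1.72 CPM in guide 2 cells. With vemurafenib the control libraries held 11, 5 and 1 counts (0.132, 0.0694 and 0.0128 CPM), against 1.41, 1.44 and 1.65 CPM with guide 1 and 2.04, 2.23 and 2.23 CPM with guide 2. The lowest knockout library in either drug therefore exceeded the highest control library of any treatment.

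PLAU rose with the knockout in both drugs, in libraries that were not those of the DMSO comparison. With no filter on low counts the differences were 6.18 and 4.60 on the log2 scale. The difference under trametinib was 6.19 on the log2 scale (SE 0.330, edgeR adjusted p = 1.12e-21), and under vemurafenib it was 4.60 (SE 0.240, adjusted p = 5.54e-22). In those comparisons 55.9% and 55.6% of all tested genes were called at an adjusted p under 0.05, and 27.1% and 27.3% were called higher, so a call by itself is common here. Since the control level rests on few counts, the ratio of pooled counts was also taken with an exact 95% interval that covers counting error only. It was 80.5 under trametinib (31.3 to 296, 689 counts against 4) and 25.1 under vemurafenib (15.6 to 43.3, 853 counts against 17). Both intervals are wider than the SEs of 0.330 and 0.240 imply. An SE derived from the F statistic is too small at so few control counts. These are bulk libraries, in which more cells that express PLAU and more PLAU RNA per cell cannot be told apart.

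The knockout difference in PLAU under vemurafenib was smaller than under trametinib by 1.59 on the log2 scale, but this gap did not pass the test (SE 0.700, adjusted p = 0.225, 95% interval of the difference -3.06 to -0.12 before adjustment). Without control replicate 3 in vemurafenib, the library with 1 count, it was -2.08 with an adjusted p of 0.0465, and without control replicate 1 in vemurafenib, the library with 11 counts, it was -0.75 with an adjusted p of 0.754. Of all tested genes, 5.9% were called in this comparison.

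**Figure D1:**
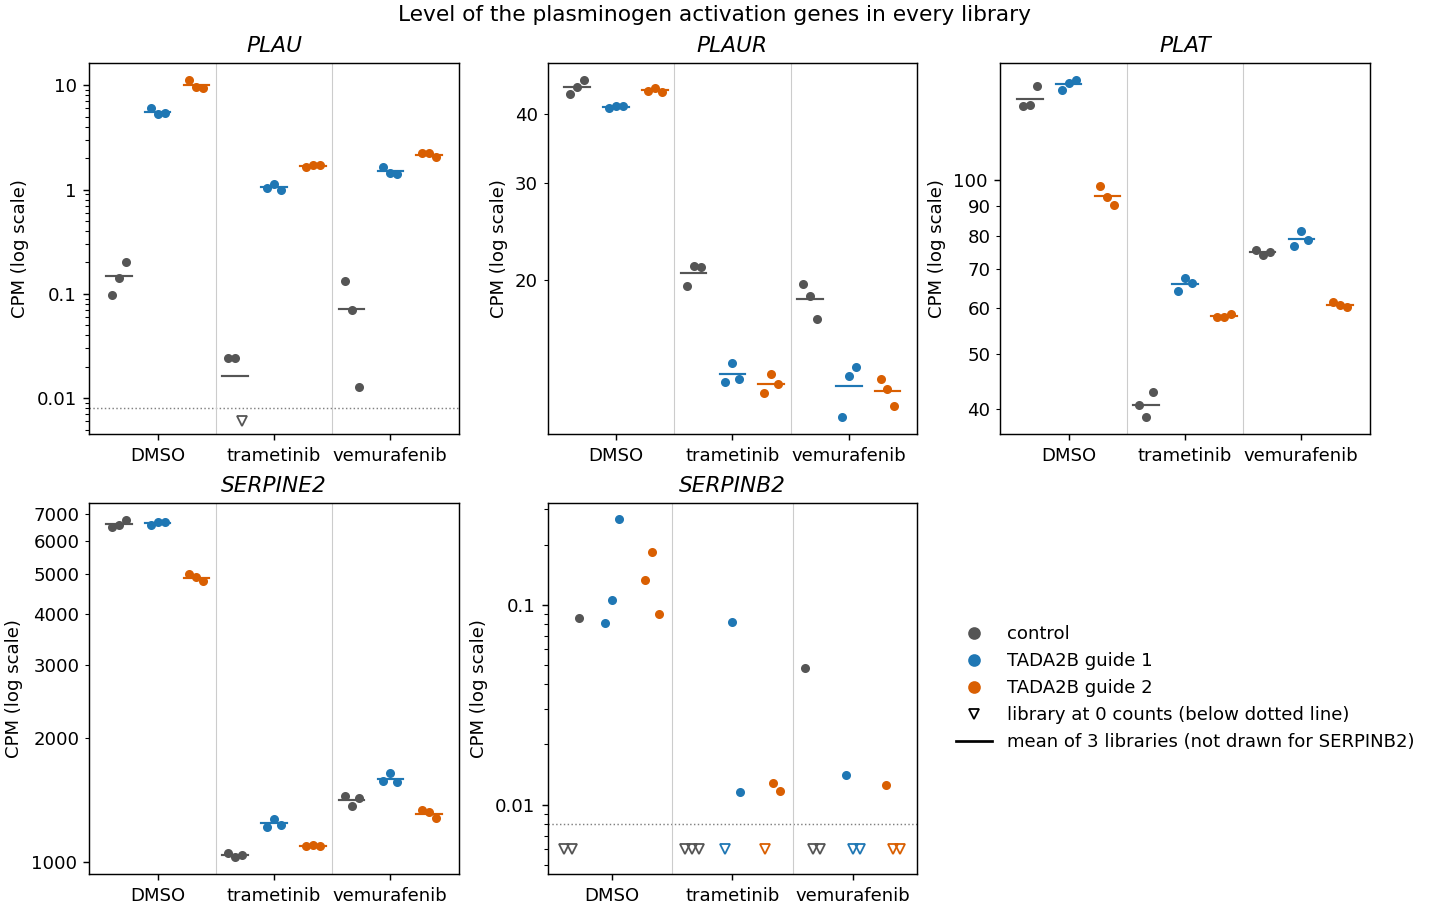
CPM of the 5 genes (vertical axes, log scale) in each of the 27 libraries, grouped by treatment, with points for libraries, bars for the mean of 3 libraries and open triangles for libraries at 0 counts. PLAU separates every knockout library from every control library, while SERPINE2 and PLAUR separate the DMSO libraries from those with either drug.

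PLAT (ENSG00000104368, hg38 chr8:42175233-42207724, minus strand) makes tissue plasminogen activator, best known for dissolving clots, and was the more abundant activator in every group. In DMSO the control libraries stood at 134, 135 and 146 CPM, guide 1 at 143, 147 and 149, and guide 2 at 90.3, 93.4 and 97.5. Guide 1 and control libraries overlapped, and guide 2 lay below both. The average of both guides in DMSO was 0.24 lower than control on the log2 scale, with guide 1 0.08 higher and guide 2 0.56 lower, given with no test.

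PLAT responded to the knockout differently in the 2 drugs. With trametinib the control libraries stood at 38.7, 40.7 and 42.9 CPM, guide 1 at 64.2, 66.3 and 67.5, and guide 2 at 57.8, 57.9 and 58.6, so that both knockout populations lay above control. With vemurafenib control stood at 74.2, 75.0 and 75.7 CPM, guide 1 at 76.7, 78.7 and 81.6, and guide 2 at 60.1, 60.8 and 61.3, which puts guide 2 alone below control. PLAT rose with the knockout under trametinib by 0.60 on the log2 scale (1.52-fold, SE 0.0327, edgeR adjusted p = 2.16e-21), by 0.70 with guide 1 and 0.51 with guide 2. Under vemurafenib the average of both guides fell by 0.11 (SE 0.0309, adjusted p = 0.00158), but the guides had opposite signs, 0.08 with guide 1 (adjusted p = 0.0729) and -0.30 with guide 2 (adjusted p = 4.94e-10). The change between the drugs did pass its own test and had the same sign with both guides: the knockout difference was 0.72 lower under vemurafenib than under trametinib (SE 0.0448, adjusted p = 7.39e-17), 0.62 lower with guide 1 and 0.82 lower with guide 2.

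PLAUR (ENSG00000011422, hg38 chr19:43646095-43670547, minus strand), the cell-surface receptor for urokinase, stood at a similar level in control and knockout cells in DMSO. In DMSO the control libraries stood at 43.4, 44.7 and 46.1 CPM, guide 1 at 41.1, 41.3 and 41.4, and guide 2 at 43.9, 44.0 and 44.6. Control and guide 2 overlapped, and guide 1 lay slightly below. The average log2 difference in DMSO was -0.07, given with no test.

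In both drugs PLAUR fell with the knockout. With trametinib control stood at 19.5, 21.1 and 21.3 CPM, guide 1 at 13.1, 13.3 and 14.2, and guide 2 at 12.5, 13.0 and 13.5. With vemurafenib control stood at 17.0, 18.7 and 19.7 CPM, guide 1 at 11.3, 13.4 and 13.9, and guide 2 at 11.9, 12.7 and 13.2. In each drug all 6 knockout libraries lay below the 3 control libraries. The log2 difference was -0.64 under trametinib (1.56-fold lower, SE 0.0493, edgeR adjusted p = 8.79e-16) and -0.53 under vemurafenib (1.45-fold lower, SE 0.0504, adjusted p = 5.75e-13), in comparisons that called 28.8% and 28.3% of genes lower. The guides gave -0.61 and -0.67 under trametinib, and -0.52 and -0.55 under vemurafenib. The difference between the drugs was 0.10 (SE 0.0711, adjusted p = 0.536, 95% interval -0.05 to 0.25 before adjustment).

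SERPINE2 (ENSG00000135919, hg38 chr2:223975112-224039319, minus strand), a secreted inhibitor of both activators, was by far the most abundant member. In DMSO the control libraries stood at 6520, 6588 and 6783 CPM, guide 1 at 6592, 6673 and 6697, and guide 2 at 4797, 4907 and 4991. Guide 1 overlapped control and guide 2 lay below, as for PLAT. Under trametinib control stood at 1027, 1042 and 1050 CPM, guide 1 at 1215, 1232 and 1272, and guide 2 between 1092 and 1097, all knockout libraries above control. Under vemurafenib control stood at 1367, 1432 and 1442 CPM, guide 1 at 1567, 1570 and 1643, and guide 2 at 1276, 1320 and 1335, so the guides lay on either side of control.

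The SERPINE2 rise with the knockout under trametinib was small, at 0.16 on the log2 scale (SE 0.0230, edgeR adjusted p = 3.27e-08), 0.25 with guide 1 and 0.07 with guide 2 (adjusted p = 0.0166). Under vemurafenib the average difference was 0.03 (SE 0.0229, adjusted p = 0.250, 95% interval -0.02 to 0.08), an average of a rise of 0.17 with guide 1 (adjusted p = 2.65e-07) and a fall with guide 2 (log2 -0.11, adjusted p = 4.08e-04). The knockout difference was 0.13 lower under vemurafenib than under trametinib (SE 0.0324, adjusted p = 0.00591). With guide 1 alone that gap was -0.08 and did not pass the test (adjusted p = 0.281), and with guide 2 alone it was -0.18.

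SERPINB2 (ENSG00000197632, hg38 chr18:63871692-63903890, plus strand), an inhibitor of urokinase that is mostly kept inside the cell, was at the limit of detection. The control libraries held 0, 0 and 6 counts in DMSO, 0, 0 and 0 in trametinib, and 4, 0 and 0 in vemurafenib. Guide 1 held 6, 8 and 21 counts in DMSO, and guide 2 held 10, 15 and 6. With trametinib guide 1 held 0, 8 and 1 and guide 2 held 0, 1 and 1, and with vemurafenib each guide held 1, 0 and 0. The 2 knockout groups in DMSO were thus the only groups without a library at 0. Pooled over 3 libraries, the DMSO level was 0.154 CPM with guide 1, 0.138 with guide 2 and 0.0274 in control, where 1 library held all 6 counts. No fold, interval or test is given, since the gene passed the filter only through the libraries where it was highest.

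**Figure D2:**
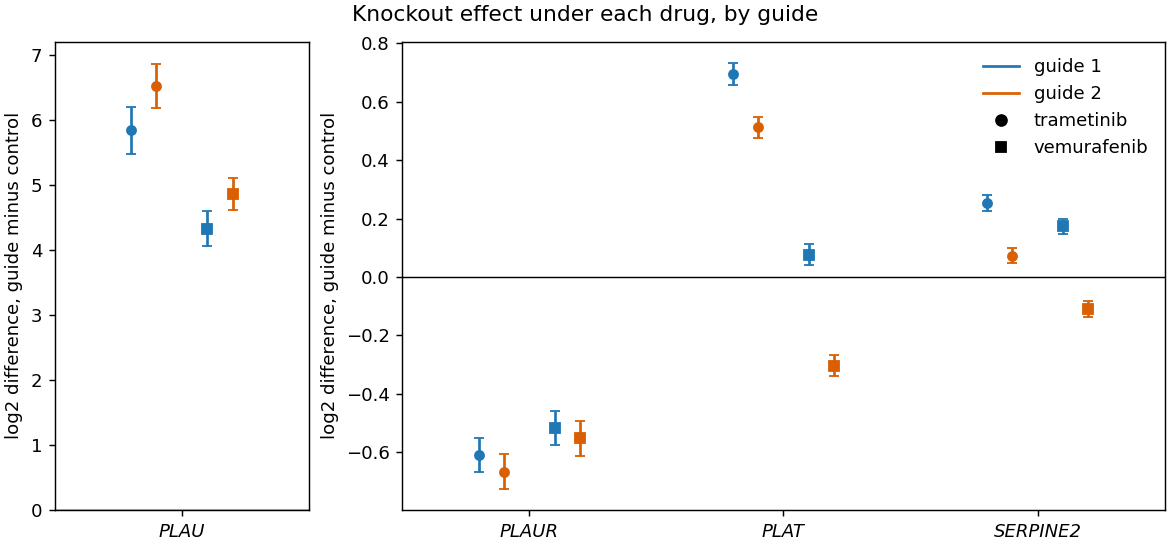
The log2 difference from control (vertical axes) for PLAU, PLAUR, PLAT and SERPINE2 with each guide under trametinib and under vemurafenib, with bars for 1 SE. The PLAU bars are too short, since its control counts are few. PLAU stands far above 0 with both guides, PLAUR lies below 0 in both drugs, and PLAT and SERPINE2 differ between the guides.

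Genes that overlap the members held few counts. The antisense gene C10orf55 shares 916 exon bases with PLAU, 31.1% of the PLAU exons, and held at most 2 counts in any library over all its exons, which reach beyond PLAU, against 401 to 845 counts of PLAU in knockout libraries in DMSO. SERPINB10, on the same strand, shares 547 bases with SERPINB2, 19.9% of its exons, and also held at most 2 counts. RN7SL368P lies within PLAUR and shares no exon base with it. The strand setting of the counting is not given in the sources used here, so how reads in the shared bases were assigned is not known.

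The guides differed in their effect on the activators and on SERPINE2. For PLAT and SERPINE2 in vemurafenib the differences from control had opposite signs with the 2 guides. PLAU was higher with guide 2 than with guide 1 in all 3 treatments, by 0.86 on the log2 scale in DMSO (SE 0.119, given with no test since these libraries led to the choice of PLAU), 0.68 in trametinib (SE 0.154, edgeR adjusted p = 7.02e-04) and 0.53 in vemurafenib (SE 0.147, adjusted p = 0.00721). PLAT was lower with guide 2, by 0.64 in DMSO (adjusted p = 4.92e-20), 0.18 in trametinib (adjusted p = 1.03e-04) and 0.38 in vemurafenib (adjusted p = 6.28e-12). SERPINE2 was lower with guide 2 as well, by 0.44, 0.18 and 0.28 (adjusted p = 1.42e-18, 5.12e-07 and 4.26e-12). The PLAUR differences between guides were 0.10, -0.06 and -0.03, and none passed the test (adjusted p = 0.262, 0.596 and 0.806). Over all tested genes, 11.9%, 19.7% and 16% were called between the guides in DMSO, trametinib and vemurafenib. Whether a difference in knockout efficiency, in cell population or in targets moved with these values was not tested.

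Both drugs lowered PLAUR, PLAT and SERPINE2 in control and in knockout cells. In control cells SERPINE2 fell by 2.67 on the log2 scale with trametinib (6.38-fold, SE 0.0280) and 2.23 with vemurafenib (4.69-fold). In knockout cells it fell by 2.29 (4.90-fold) and 1.98 (3.95-fold). PLAT fell 3.39-fold with trametinib and 1.84-fold with vemurafenib in control cells (log2 -1.76 and -0.88). In knockout cells the log2 responses of PLAT were -0.92 and -0.76, at -1.15 and -0.89 with guide 1 and -0.69 and -0.63 with guide 2. PLAUR fell by 1.12 and 1.28 in control cells and by 1.69 and 1.74 in knockout cells. All these responses passed the edgeR test, the PLAUR response of control cells to trametinib with an adjusted p of 1.38e-23, in comparisons that called 69%, 67.3%, 71.4% and 69.1% of genes (trametinib and vemurafenib in control cells, then in knockout cells). Whether the responses differ between knockout and control cells was not tested, since that difference contains the DMSO comparison that chose the members.

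The PLAU response to each drug uses the DMSO libraries that led to its choice and is given with no test. In knockout cells it was -2.49 on the log2 scale with trametinib (5.62-fold lower, SE 0.0967) and -2.06 with vemurafenib (4.17-fold lower, SE 0.0941). In control cells, with 32 counts in DMSO, 4 in trametinib and 17 in vemurafenib, it was -3.01 (SE 0.591) and -0.99 (SE 0.431). All drug-treated knockout groups stood above the control DMSO mean of 0.147 CPM, the lowest being guide 1 in trametinib at 1.05 ± 0.0655 CPM (SD, n = 3).

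**Figure D3:**
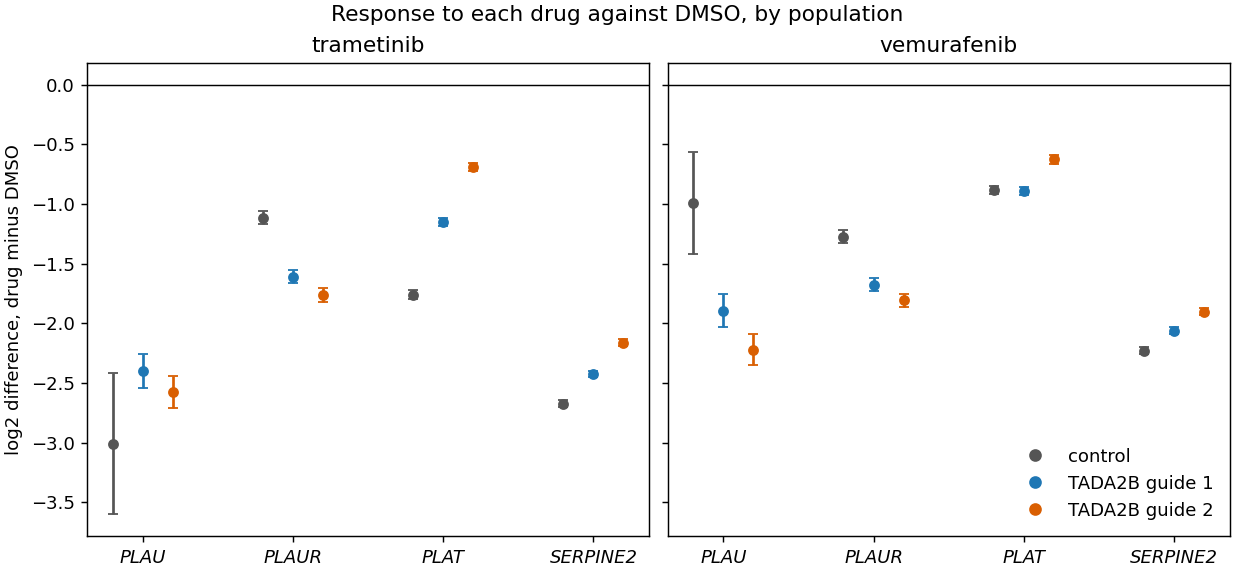
The log2 response to each drug against DMSO for PLAU, PLAUR, PLAT and SERPINE2 in control and knockout cells, with bars for 1 SE. All 4 genes have values below 0, PLAU in control cells with the widest bars because of its low counts.

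The drugs were also compared with each other at the single dose and time of each. PLAT was higher with vemurafenib than with trametinib, by 0.88 in control cells (1.84-fold, SE 0.0369, edgeR adjusted p = 2.26e-24) and by 0.16 in knockout cells (SE 0.0255, adjusted p = 1.84e-06), with 0.26 for guide 1 and 0.06 for guide 2 (adjusted p = 0.339). SERPINE2 was higher with vemurafenib by 0.44 in control and 0.31 in knockout cells. PLAU was higher with vemurafenib by 0.43 in knockout cells (SE 0.107, adjusted p = 0.00192), with 0.51 for guide 1 and 0.36 for guide 2 (adjusted p = 0.119). Of all tested genes, 16.3% were called between the drugs in control cells and 19.2% in knockout cells.

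In control cells the same comparison was less certain for PLAU and PLAUR. PLAU differed by 2.02 (SE 0.687, edgeR adjusted p = 0.0349), on 17 counts against 4, and the call was lost when any one of the 3 trametinib libraries or vemurafenib replicates 1 or 2 was left out (1.18 to 2.37). PLAUR differed by -0.16 (SE 0.0568, adjusted p = 0.0468), and the call was lost without trametinib replicate 2 or 3, or vemurafenib replicate 2 or 3 (-0.10 to -0.17). PLAUR in knockout cells differed by -0.06 (adjusted p = 0.441).

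Levels of different genes were set side by side after division by exon length. The length was the union of all annotated exons of a gene, not that of the transcripts expressed here. It was 2950 bases for PLAU, 6618 for PLAT and 8891 for SERPINE2, and the shares and ratios below depend on it. In control cells in DMSO, SERPINE2 stood at 746 CPM per kb of exon, PLAT at 20.9, PLAUR at 10.0 and PLAU at 0.0498. PLAU made up 0.236% of the summed activator level (PLAU plus PLAT, CPM per kb) in control cells in DMSO, 7.87% ± 0.604 in guide 1 cells and 19.5% ± 0.872 in guide 2 cells (SD, n = 3). With trametinib the share was 0.0913% in control, 3.45% with guide 1 and 6.13% with guide 2. With vemurafenib it was 0.213%, 4.09% and 7.40%. Tissue plasminogen activator transcript thus remained the larger part of the activator transcripts in every group.

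The ratio of SERPINE2 to the summed activators, on the same scale, was lower with either drug than in DMSO in all populations. It was 35.6 ± 0.923 in control cells in DMSO, 19.0 ± 0.828 with trametinib and 14.0 ± 0.284 with vemurafenib (SD, n = 3). In guide 1 cells it was 31.2, 13.5 and 14.4, and in guide 2 cells 31.4, 13.2 and 14.9. With trametinib the knockout libraries therefore had less inhibitor transcript per activator transcript than control, and with vemurafenib the means were 14.4 and 14.9 against 14.0. These shares are descriptions of transcripts and carry no test.

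**Figure D4:**
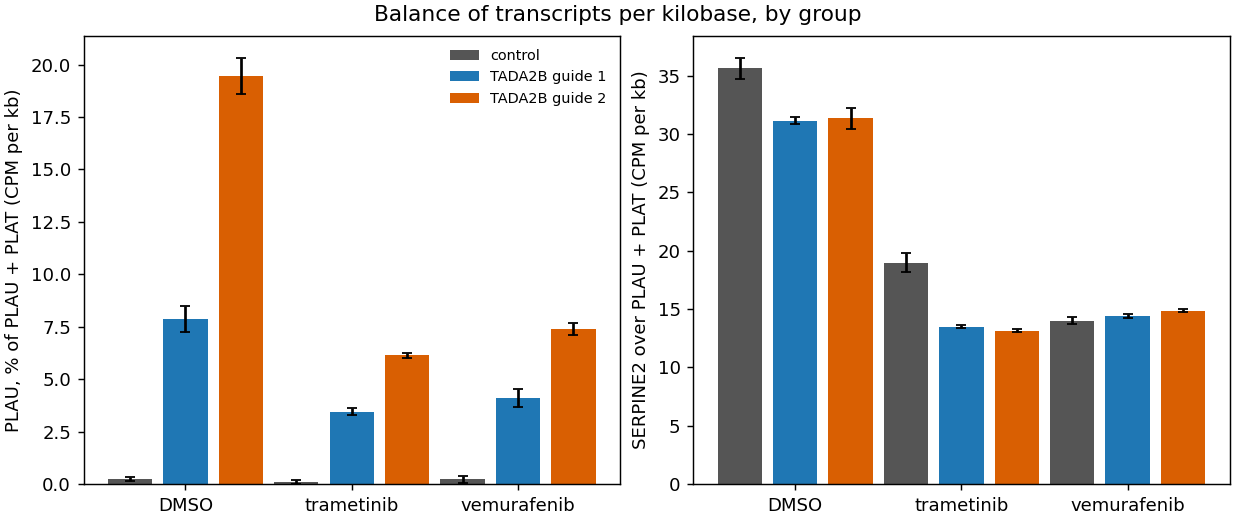
PLAU as a percentage of PLAU plus PLAT per kb, and SERPINE2 per activator transcript per kb, by treatment and population. Bars are means of 3 libraries, with the SD as error bars. The PLAU share is highest in guide 2 cells in DMSO (19.5%), and the SERPINE2 ratio is highest in DMSO in every population.

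The other genes of the pathway moved in both directions. Of 6 further inhibitors of activators and plasmin, 2 rose and 2 fell with the knockout under trametinib (median log2 0.15) and 2 rose and 1 fell under vemurafenib (median 0.04). Over all tested genes 27.1% rose and 28.8% fell under trametinib, and 27.3% and 28.3% under vemurafenib, with a median of -0.02 and -0.01. SERPINF2 (the plasmin inhibitor alpha-2-antiplasmin) rose by 2.07 and 2.00, and SERPINA5 (protein C inhibitor) by 0.40 and 0.21, while A2M (alpha-2-macroglobulin, a broad protease trap) fell by 1.89 and 1.98. TFPI2, a Kunitz-type inhibitor of plasmin, fell by 1.00 under trametinib and differed by 0.10 under vemurafenib (adjusted p = 0.148).

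Plasminogen itself (PLG) held at most 8 counts in any library and did not pass the filter. Of 13 listed genes for plasminogen, its receptors and clearance receptors, 10 were tested, and 6 rose and 3 fell under trametinib (median log2 0.13), 5 rose and 3 fell under vemurafenib (0.06), against 27.1% and 28.8%, then 27.3% and 28.3%, of all genes. SORL1, a sorting receptor that binds urokinase and its complexes, rose by 3.14 and 1.74. VTN (vitronectin, a matrix protein bound by PLAUR) rose by 2.53 and 2.00, and PLGRKT, a membrane receptor for plasminogen, by 0.35 and 0.44. MRC2, a collagen receptor that associates with PLAUR, fell by 0.47 and 0.57.

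Proteases that can activate single-chain urokinase, with their inhibitors, gave 7 tested genes of 8, of which 2 rose and 4 fell in each drug (medians -0.39 and -0.10). The share that rose was near that of all genes, 27.1% and 27.3%. The share that fell, 4 of only 7 genes, was above the 28.8% and 28.3% of all genes. HPN (hepsin) fell by 1.46 and 1.80 and KLKB1 (plasma prekallikrein) by 1.55 and 1.52, the latter from at most 62 counts in a library. CTSB (cathepsin B) rose by 0.54 and 0.47, and SPINT1, an inhibitor of such proteases, by 1.28 and 1.29. Thus the listed genes in this group that rose were a lysosomal protease and an inhibitor.

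Plasmin can activate several matrix metalloproteinases. Of 11 listed metalloproteinases and tissue inhibitors, 7 rose and 4 fell under trametinib (median log2 1.25), and 6 rose and 4 fell under vemurafenib (0.36). Of all genes 27.1% rose and 28.8% fell under trametinib, and 27.3% and 28.3% under vemurafenib. MMP1, an interstitial collagenase, rose by 5.10 and 4.58, MMP3 (stromelysin 1) by 5.16 and 4.39, and MMP13 (collagenase 3) by 4.19 and 4.98. Their control means in the 2 drugs were 0.0994 and 0.197, 0.146 and 0.213, and 0.106 and 0.0763 CPM, so these sizes rest on few control counts. In both drugs TIMP3 fell (-1.22 and -0.97), as did TIMP2 (-0.57 and -0.57) and MMP14 (-0.48 and -0.48). TIMP4 fell as well (-2.62 and -2.77), on at most 33 counts in a library. MMP10 held 0 counts in all control libraries in vemurafenib, and the knockout level was at least 9.08-fold higher than a floor of 3 counts per library.

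Of 13 membrane partners of PLAUR, 10 were tested, with 4 higher and 5 lower under trametinib (median 0.17) and 4 higher and 4 lower under vemurafenib (0.33), beside 27.1% higher and 28.8% lower, then 27.3% and 28.3%, over all genes. EGFR, a receptor tyrosine kinase that PLAUR can signal through, rose by 2.41 and 2.13. The integrin subunit ITGB5, which pairs with the alpha-v subunit to bind vitronectin, rose by 1.21 and 1.18, and the leukocyte subunit ITGB2 by 0.58 and 0.86. ITGB3 fell by 0.81 and 0.48. No list moved one way as a whole, and the lists were chosen with results of these data known.

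**Figure D5:**
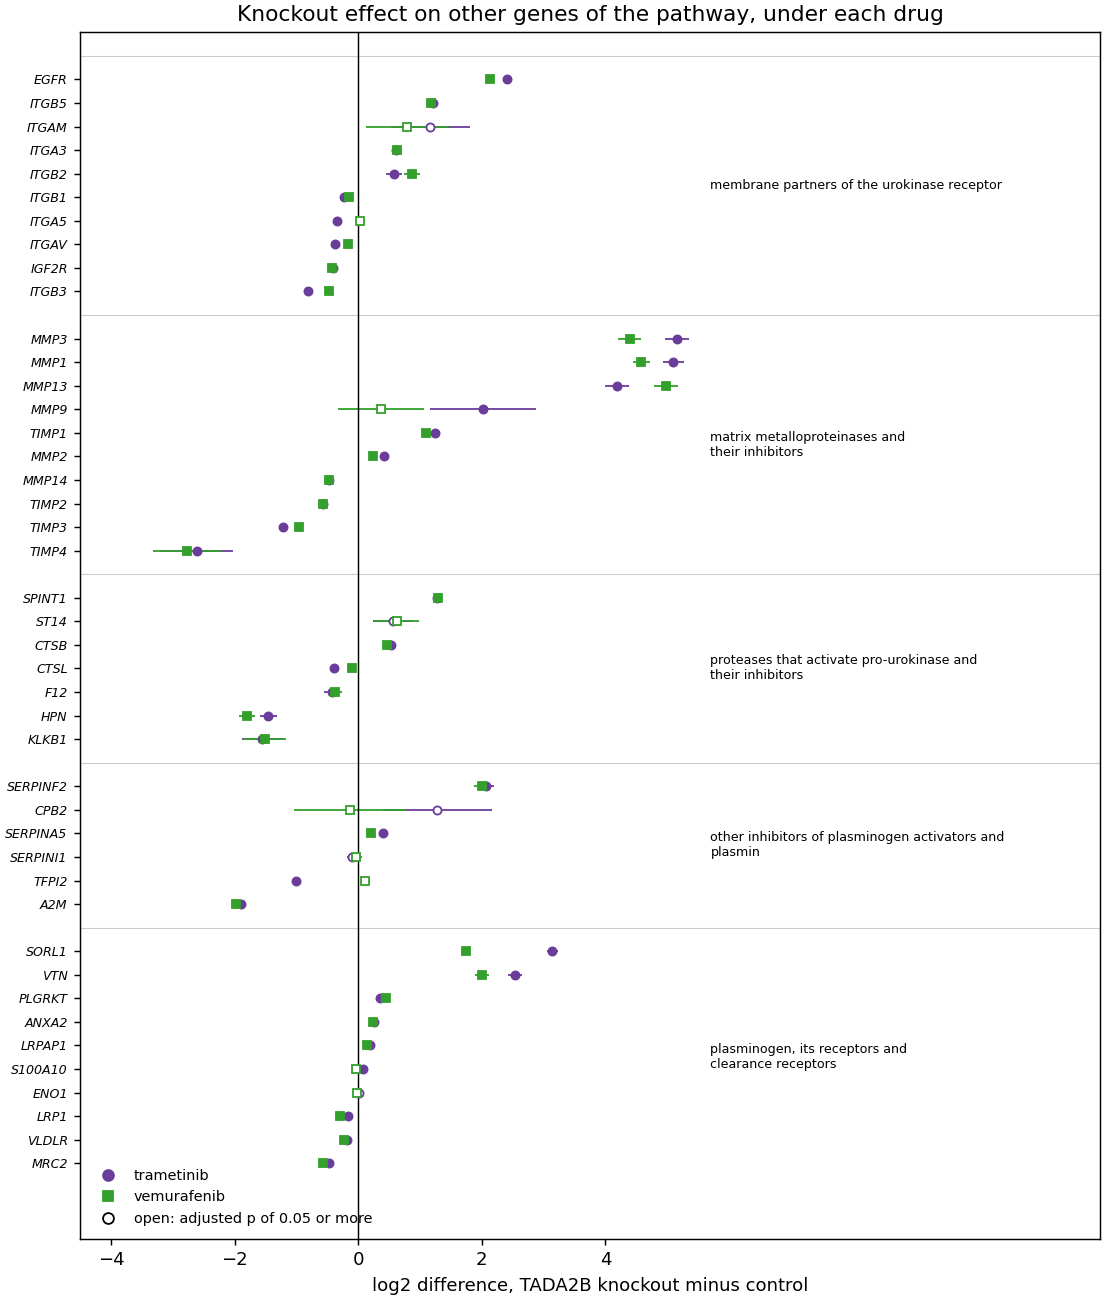
The log2 difference between knockout and control cells (horizontal axis) under trametinib and vemurafenib for the tested genes of 5 pathway lists, with bars for 1 SE and open symbols for an adjusted p of 0.05 or more; MMP10 is left out because control cells in vemurafenib were at 0. MMP1, MMP3 and MMP13 lie farthest to the right in both drugs, and TIMP4 farthest to the left.

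The genes whose 9 group means (log2 CPM) followed those of PLAU most closely among 12161 protein-coding genes were PRDM1 (Pearson r = 0.997), a transcriptional repressor, AMPD2 (0.990), TLR6 (0.990), CANT1 (0.990) and USP18 (0.988). For PLAUR they were STX2, ZDHHC6 and TRIM27 (0.993, 0.993 and 0.992), for PLAT SHROOM2, CKAP4 and TCF7L2 (0.974, 0.959 and 0.951), and for SERPINE2 ITPA, SSR1 and DPH2 (0.996 each). Among the members, SERPINE2 correlated with PLAT (0.921) and PLAUR (0.916), PLAUR with PLAT at 0.728, and PLAU with PLAUR, PLAT and SERPINE2 at 0.120, 0.370 and 0.356. A correlation does not reflect the size of a change. Group means ran from 0.0162 to 10.1 CPM for PLAU, 0.609 to 8.73 for PRDM1 and 60.5 to 84.0 for AMPD2. These are descriptions over the 9 groups, which share their libraries, their depth and the steps between DMSO and drug. For PLAU they include the DMSO difference that led to its choice.

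Other markers moved with the populations. The summed CPM of 8 melanoma markers was 1234 to 2607 over control libraries, 734 to 988 with guide 1 and 528 to 676 with guide 2. For 7 fibroblast markers it was 32.8 to 63.5, 59.4 to 109 and 70.4 to 140, for 4 leukocyte markers 7.29 to 17.3, 15.8 to 36.5 and 13.5 to 26.1, for 4 endothelial markers 16.1 to 22.3, 7.91 to 10.2 and 6.37 to 8.63, and for 6 keratinocyte markers 44.7 to 58.5, 48.8 to 63.6 and 50.1 to 59.8. KRT1 was at 0 in every library, and DSG3 held at most 1 count. Mitochondrial genes took 1.62% (control), 2.54% (guide 1) and 2.60% (guide 2) of the DMSO counts, 2.20%, 3.34% and 3.48% of the trametinib counts, and 2.27%, 3.50% and 3.37% of the vemurafenib counts. The part of these differences in the results for PLAU, PLAT, PLAUR and SERPINE2 was not tested.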

How the data were processed

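The authors deposited 1 table of raw counts per gene for 27 libraries. The submitters' processing notes name bcl2fastq, HISAT2, HTSeq and the hg38 build, with no order, version or strand setting, and per the labels' protocols the libraries were made with a stranded mRNA kit. Gene names and exon lengths came from GENCODE. Counts as deposited were fitted with edgeR 4.0.16 in R 4.3.3 (TMM scaling, filterByExpr with a minimum count of 10 and a total of 15, robust quasi-likelihood, 9 group means over 27 libraries), and p-values were adjusted by Benjamini-Hochberg over 25199 genes, with calls under 0.05. The knockout effect is the mean of both guides minus control. A log2 difference is the fitted coefficient, and its SE was derived from the F statistic. Where 1 side holds few counts, as PLAU does in control cells, such an SE can be smaller than counting error. CPM uses TMM-scaled totals; log2 CPM for likeness used a prior count of 2.

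The members and all gene lists were chosen with earlier results of these data known. The named genes are the members, TADA2B, genes that overlap a member and the genes most like each member. For each list, up to 4 genes were added, with the largest change among those called in the same direction in both drugs. TFPI2, MMP14, TIMP2, TIMP3 and TIMP4 were named after their values were seen. 1 gene of the inhibitor list and 1 leukocyte marker are not reported here. SERPINB2 is given as counts, not tested as planned. Libraries of 1 group differed by more than sampling noise (chi-square per degree of freedom 2.97 to 12.3). The fit was also run on simulated counts, and no outcome of that run is given here. Alternatives were DESeq2 1.42.0, limma 3.58.1, other scaling, no filter, fewer groups, 1 guide, a replicate block and leaving out each library. Tests use the spread of 3 libraries a group, over all groups in the fit. Intervals of a difference derive from its SE. For the PLAU knockout difference in either drug such an interval is narrower than counting error alone, so it does not cover the spread there. Intervals of a ratio of pooled counts cover counting error only.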

Additional observations from a re-analysis of the deposited data

Results flagged for a closer look

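PLAT differed between the drugs in its response to the TADA2B knockout, by -0.717 on the log2 scale (vemurafenib minus trametinib, edgeR interaction contrast, adjusted p = 7.39e-17): the knockout level was 1.52-fold above control under trametinib and 0.11 lower on the log2 scale under vemurafenib. All 6 knockout libraries lay above control in trametinib, and in vemurafenib guide 1 lay above and guide 2 below. SERPINE2 gave a smaller difference of the same sign, -0.132 (adjusted p = 0.00591), which did not pass the test with guide 1 alone.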

How the results depend on the processing

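Of 836 alternative values for the members, 802 kept their direction and their side of the threshold or moved by less than the spread, 17 lost the call, 3 gained it, 4 changed sign and 10 moved further; all 195 alternative counts of called genes stayed within 1.5 times. In control cells, the vemurafenib minus trametinib difference of PLAU was no longer called with the DESeq2 Wald test (2.11), limma voom (1.65), no filter (2.01) or the compared groups alone (2.01), nor that of PLAUR with limma voom (-0.16); leaving out 1 library gave 1.18 to 2.51 for PLAU and -0.10 to -0.21 for PLAUR. The PLAUR difference between guides in DMSO was called when only those groups were fitted (0.10, adjusted p = 0.0454). With guide 1 and guide 2 alone, the DMSO knockout differences were 5.24 and 6.10 for PLAU, -0.117 and -0.0186 for PLAUR, 0.0836 and -0.56 for PLAT, and 0.0052 and -0.44 for SERPINE2. Under vemurafenib, guide 1 gave 0.0765 for PLAT and 0.17 for SERPINE2, and guide 2 gave -0.11 for SERPINE2; the SERPINE2 gap between the drugs was -0.0809 with guide 1. The drug contrast in guide 2 cells was 0.36 for PLAU and 0.0633 for PLAT, and the PLAU response to vemurafenib was -1.90 with guide 1 and -2.22 with guide 2. The cause was not tested. Leaving out 1 library gave 5.45 to 5.94 for PLAU in DMSO, -0.50 to -1.83 for its vemurafenib response in control cells, and -0.75 to -2.08 for its knockout difference between the drugs. Replicate numbers did not pair the libraries (108 same-numbered pairs, r -0.053 to 0.054; 10 of 27 libraries were closest to their own number), and the fit with the number as a block changed no call, with PLAU at 6.19 under trametinib. Depth limits PLAU in control cells and SERPINB2 throughout.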
